A study of Mus musculus with 6 samples.

Results

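The myeloid lineage transcription factors described here are 10 genes named in advance by symbol, Cebpa, Cebpb, Cebpd, Cebpe, Cebpg, Spi1, Irf8, Irf4, Gfi1 and Klf4, out of 22180 named genes on the array. Each is represented by the probe set with the highest mean over the 6 arrays among those annotated to that symbol alone. Irf8 had 2 such probe sets and the other factors 1 each. All 10 were measured, and 9 passed the level filter used for testing. Irf4, with a mean of 4.12 against a filter level of 4.13, fell just below it and was described without the limma test. It did enter the exact permutation tests.

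RNA came from c-Kit+ leukemic spleen cells of mice with the genotypes Mx1-Cre, Cbfb+/56M (the control here) and Chd7f/f, Mx1-Cre, Cbfb+/56M, with 3 arrays each. All animals carried the Cre transgene and the Cbfb+/56M allele, and all were given pIpC and ENU; by its label the control differs only in lacking the floxed Chd7 alleles. Cbfb+/56M is a conditional allele that yields the Cbfb-MYH11 fusion of inv(16) acute myeloid leukemia, and Mx1-Cre acts in interferon-responsive cells, so recombination is not limited to the myeloid lineage. The samples of a genotype are described as independent, but no label ties a sample to its own mouse or gives an age; the p-values therefore reflect only how far these samples differ, which may be technical. Values are levels from robust multi-array averaging (RMA) on the log2 scale, and every difference is Chd7f/f minus control.

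These factors specify granulocytes and monocytes. Spi1 encodes PU.1, an ETS factor needed for all myeloid cells, and Cebpa encodes C/EBP-alpha, which takes progenitors to the granulocyte-monocyte stage. Cebpe and Gfi1 serve later granulocyte maturation, Irf8 and Klf4 the monocyte branch, and Cebpb and Cebpd granulocyte production and activation under stress. Irf4 overlaps with Irf8 in function and is best known from B and plasma cells, and Cebpg encodes a short C/EBP protein without its own activation domain. In leukemias with a core-binding factor fusion, RUNX1 and its partner CBFB act on several of these genes.

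The start regions of 4 factors are shown because Cebpa, Cebpb and Irf8 had the highest correlations among the factors and because Cebpg, the factor with the highest signal, lies close to Cebpa on chromosome 7, with 1 protein-coding gene between them. The sequences are from RefSeq, build GRCm38.p6, end at the base before the annotated start, and have motif matches in capitals.
Cebpa, chr7:35119143-35119292, plus strand: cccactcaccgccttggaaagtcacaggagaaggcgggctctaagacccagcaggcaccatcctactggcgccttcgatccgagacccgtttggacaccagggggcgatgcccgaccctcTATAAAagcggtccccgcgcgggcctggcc
Cebpb, chr2:167688765-167688914, plus strand: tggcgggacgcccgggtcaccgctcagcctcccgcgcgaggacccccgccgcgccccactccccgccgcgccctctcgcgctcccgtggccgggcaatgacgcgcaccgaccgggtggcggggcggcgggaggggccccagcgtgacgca
Irf8, chr8:120736208-120736357, plus strand: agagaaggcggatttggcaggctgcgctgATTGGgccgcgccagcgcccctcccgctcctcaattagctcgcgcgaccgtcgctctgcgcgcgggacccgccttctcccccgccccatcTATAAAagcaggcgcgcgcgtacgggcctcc
Cebpg, chr7:35056567-35056716, minus strand: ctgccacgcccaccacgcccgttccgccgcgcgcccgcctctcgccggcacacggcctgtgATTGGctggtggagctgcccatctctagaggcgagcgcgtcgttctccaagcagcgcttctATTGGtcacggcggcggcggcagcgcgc

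RefSeq start regions were found for 7 of the 10 factors. The 250 bases before the annotated start were searched on both strands for 6 motifs. The RUNX motif was searched as TGTGGT and the PU.1 motif as GAGGAA. The C/EBP motif was searched as TTGCNNCAA. The IRF motif was searched as GAAANNGAA. The TATA box, searched as TATAAA, and the CCAAT box were added after the sequences were read. TATAAA lay at -30 in Cebpa, -31 in Irf8 and -26 in Irf4, while 12.4% of the 32851 windows of that length in the table hold it. CCAAT was found on the minus strand at -89 and -28 in Cebpg and at -121 in Irf8, against 33.8% of all windows. GAGGAA occurred once, at -19 on the minus strand of Irf4 (23.3% of all windows). The letters of the RUNX, C/EBP and IRF motifs, held by 14.0%, 1.74% and 7.13% of all windows, were not in the windows of these 7 factors. No match overlapped another.

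Individual arrays stood apart more than the genotypes did. Over the 15526 tested genes the first principal component, with 33.7% of the variance, set control replicate 1 apart at -55.0, and the second placed Chd7f/f replicate 1 at -45.2. Control replicate 2 alone had high Xist and low Y-linked genes. Chd7 itself was at 6.17, 7.54 and 5.32 in the control and at 5.48, 6.50 and 5.91 in Chd7f/f samples, and its single probe set value does not show which exons were removed. Each factor's difference without each array is given where it changes the reading.

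Spi1 and Cebpg were the only factors with a mean signal above the 70th percentile of named genes, at the 71.5th and the 80.1th percentile. The others ran from the 29.9th percentile for Irf4 to the 57.0th for Gfi1, around the named-gene median of 5.12. By mean level the order was Cebpg (8.20), Spi1 (7.36), Gfi1 (5.68), Cebpb (5.29), Cebpe (5.28), Klf4 (5.21), Irf8 (5.02), Cebpa (4.53), Cebpd (4.40) and Irf4 (4.12). These levels are array signals that also depend on the probes, so the order is one of signal and not of transcript number. Gfi1 held rank 3 on every array. Spi1 exceeded Gfi1 by 1.68 ± 0.24 (SD, n = 6 arrays), and Irf8 exceeded Cebpa by 0.49 ± 0.17, on 6 of 6 arrays each. Cebpg was above Spi1 on 5 of 6 arrays, with control replicate 2 the exception, by a margin of 0.010. Cebpb, Cebpe and Klf4 could not be ordered, since Cebpb was above Cebpe on 3 of 6 arrays and Cebpe above Klf4 on 3 of 6.

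For a sense of the scale near background, Xist was between 3.30 and 3.88 on the 5 arrays with the male pattern, and Kdm5d, Uty and Eif2s3y were at 3.70, 4.24 and 4.43 in control replicate 2. Irf4, between 3.83 and 4.40, spanned the same levels, and Cebpd and Cebpa reached no more than 4.60 and 4.76. Detection calls were not analysed here. On the log2 scale a change in a gene near background is understated.

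**Figure D1:**
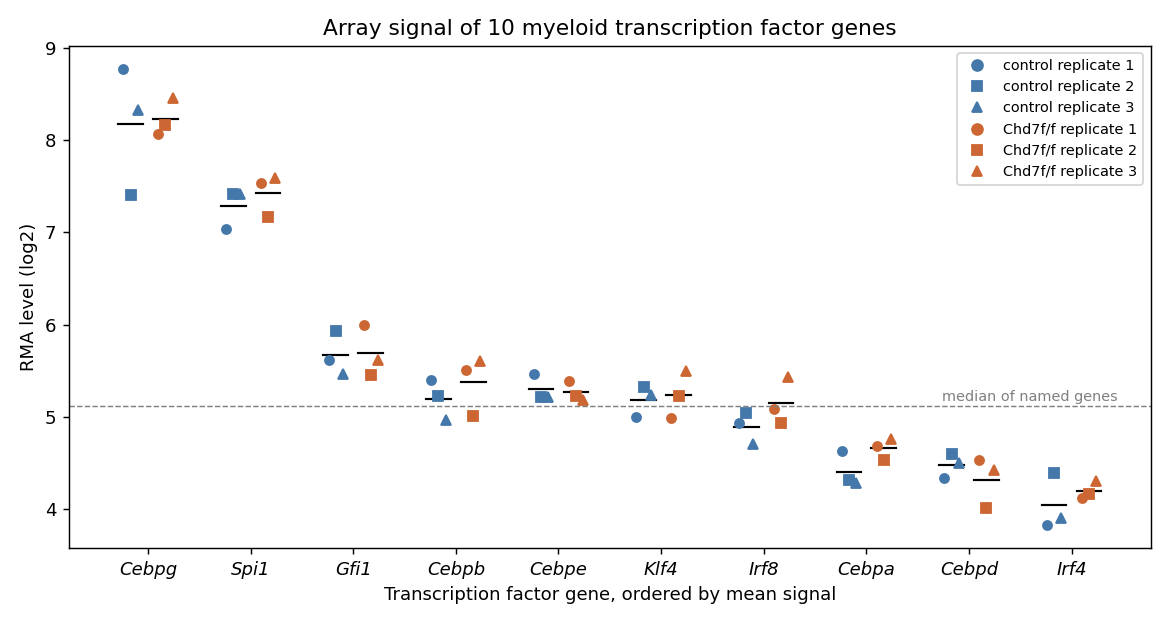
Level of each factor on the 6 arrays (RMA, log2; points are single arrays, black bars the means of 3 arrays, and the dashed line the named-gene median of 5.12). Cebpg and Spi1 lie above the rest, and the points of the 2 genotypes overlap for every factor.

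None of the 9 tested factors passed an adjusted p of 0.05 (limma with Benjamini-Hochberg adjustment over all tested genes), which 0% of the 15526 tested genes did. At an unadjusted p under 0.05 there were again 0 factors, against 1.84% of tested genes, and 0 of the 9 had values that did not overlap between genotypes, against 6.81% of tested genes. Adjusted p was 0.9998 for each factor. Of the 9, 7 were higher and 2 lower in Chd7f/f samples, with a median difference of 0.055; over all tested genes the median was -0.027 and 43.7% were higher. The exact two-sided permutation test over 3 and 3 arrays, whose smallest possible p is 0.1, gave 0.2 to 1 for the factors.

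Spi1 was at 7.04, 7.42 and 7.41 in control replicates 1, 2 and 3 and at 7.53, 7.16 and 7.59 in Chd7f/f replicates 1, 2 and 3. The lowest value belonged to control replicate 1 and the next lowest to Chd7f/f replicate 2, so the genotypes overlapped. Its difference was 0.14 (SE 0.18, 95% interval -0.29 to 0.57), and 0.014 without control replicate 1.

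Cebpa, the granulocyte-monocyte gatekeeper, was at 4.63, 4.32 and 4.28 in the control and at 4.69, 4.54 and 4.76 in Chd7f/f samples. Control replicate 1 lay within the Chd7f/f range and the other control arrays below it. The difference was 0.25 (SE 0.14, interval -0.091 to 0.60; exact permutation p = 0.2), which bounds an increase at 1.51-fold on this scale. Without control replicate 1 it was 0.36, with an unadjusted limma p of 0.040 and an adjusted p of 0.9991.

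Cebpb, induced in emergency granulopoiesis, was at 5.40, 5.23 and 4.97 in the control and at 5.51, 5.01 and 5.61 in Chd7f/f samples. The 2 highest values were from Chd7f/f samples, but Chd7f/f replicate 2 was next to the bottom. The difference was 0.18 (SE 0.20, interval -0.32 to 0.67), 0.36 with Chd7f/f replicate 2 left out and 0.061 with Chd7f/f replicate 3 left out.

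Cebpd had a negative difference of -0.16 (SE 0.17, interval -0.57 to 0.26). Its control values were 4.34, 4.60 and 4.50 and its Chd7f/f values 4.53, 4.02 and 4.42. Chd7f/f replicate 2 was the lowest array, and without it the difference was -0.0022.

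Cebpe, which drives secondary granule genes, was the steadiest factor. Its levels were 5.47, 5.22 and 5.22 in the control and 5.39, 5.23 and 5.18 in Chd7f/f samples, a range of 0.28 in all. The difference was -0.034 (SE 0.13), and the SD over the 6 arrays, 0.12, was at the 14.8th percentile of tested genes.

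Cebpg was the most variable, with an SD of 0.46 at the 84.9th percentile. It was at 8.77, 7.41 and 8.33 in the control and at 8.06, 8.16 and 8.45 in Chd7f/f samples, so that the highest and the lowest value both came from the control. The difference of 0.055 (SE 0.35, interval -0.79 to 0.90) went to 0.36 without control replicate 1 and to -0.32 without control replicate 2.

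Irf8, the monocyte and dendritic cell regulator, had a difference of 0.26 (SE 0.17, interval -0.16 to 0.68; exact permutation p = 0.2). It was at 4.93, 5.04 and 4.70 in the control and at 5.08, 4.94 and 5.44 in Chd7f/f samples. Chd7f/f replicate 3 was the highest array and control replicate 3 the lowest; the difference was 0.12 without the former and 0.17 without the latter. The lower of its 2 probe sets ran from 3.87 in Chd7f/f replicate 1 to 4.54 in Chd7f/f replicate 3, and with the mean of both probe sets the difference was 0.13.

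Irf4 was at 3.83, 4.40 and 3.90 in the control and at 4.13, 4.17 and 4.31 in Chd7f/f samples. The difference of 0.16 (exact permutation p = 0.5) was 0.34 without control replicate 2, its highest array, and 0.051 without control replicate 1, its lowest.

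Gfi1, a repressor that favours granulocytes over monocytes, was at 5.62, 5.93 and 5.46 in the control and at 5.99, 5.45 and 5.62 in Chd7f/f samples. The genotypes covered nearly the same range, and the difference was 0.019 (SE 0.19). Klf4 was at 4.999, 5.33 and 5.23 in the control and at 4.99, 5.23 and 5.49 in Chd7f/f samples, with a difference of 0.050 (SE 0.17). Both values changed sign when single arrays were left out, from -0.13 to 0.15 for Gfi1 and from -0.079 to 0.17 for Klf4.

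**Figure D2:**
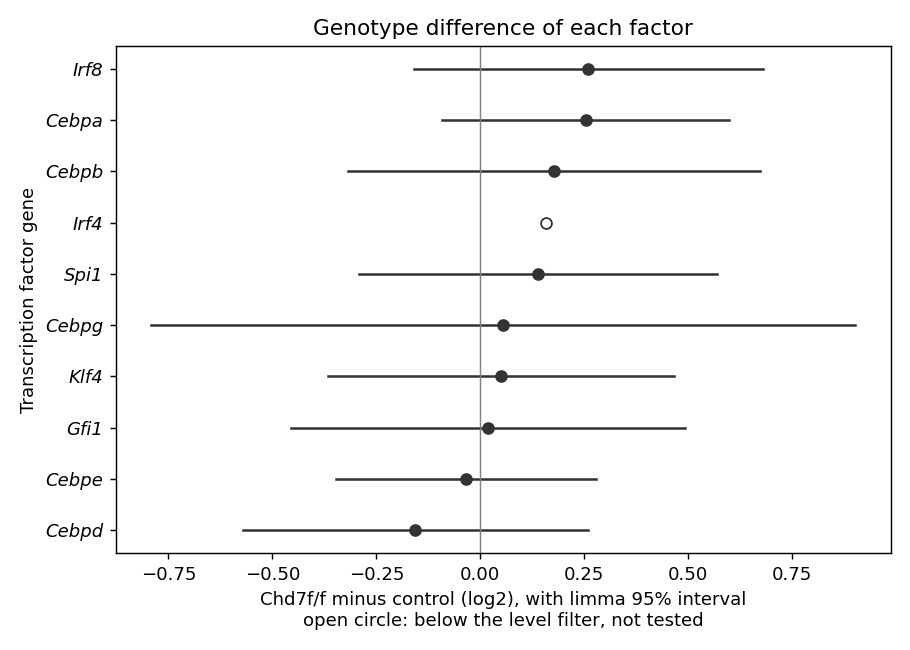
Difference between genotypes for each factor (Chd7f/f minus control, log2). Bars are limma 95% intervals, n = 3 arrays per genotype, and the open circle is Irf4, which was not tested with limma. Every interval includes 0; the widest is that of Cebpg, from -0.79 to 0.90.

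The balance between factors with opposed or exchangeable roles was compared as the difference of 2 factors within an array, for 7 pairs. Cebpe minus Irf8, granulocyte against monocyte, went from 0.41 ± 0.20 in the control to 0.11 ± 0.32 in Chd7f/f samples (SD, n = 3 each; difference -0.29, exact permutation p = 0.3, adjusted over the 7 pairs p = 0.82). Chd7f/f replicate 3 had the lowest value, at -0.25, and was the only array with Irf8 above Cebpe. With single arrays left out the difference lay between -0.41 and -0.11, nearest 0 when Chd7f/f replicate 3 was dropped. Gfi1 minus Irf8 was 0.78 ± 0.098 and 0.54 ± 0.36 (SD, n = 3 each, exact permutation p = 0.4, adjusted p = 0.82). Both pairs use the higher Irf8 probe set. With the mean of the Irf8 probe sets Cebpe minus Irf8 differed by -0.16 instead of -0.29. Gfi1 minus Irf8 then differed by -0.11 instead of -0.24. The values of both genotypes overlapped in each of the 7 pairs. The other 5 differences ran from -0.031 for Gfi1 minus Klf4 to 0.20 for Cebpa minus Cebpg, with exact permutation p of 0.6 to 0.9.

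Correlations between factors were computed for 45 pairs over all 6 arrays, which hold both genotypes and share their normalization. Pearson's r was positive in 31 pairs and negative in 14, with a median of 0.24. None passed after Benjamini-Hochberg adjustment (exact permutation over 720 pairings, smallest adjusted p = 0.31 for Pearson's r and 0.38 for Spearman's rho). Cebpe and Klf4 had the strongest relation, in opposite directions (r = -0.91, exact permutation p = 0.0069; rho = -0.94, exact permutation p = 0.017). It was -0.96 without control replicate 1 and Chd7f/f replicate 1, the arrays with the most extreme Cebpe, and -0.90 after removing the genotype means, though Cebpe spans only 0.28. Some r depended on the normalization. After another quantile normalization r went from -0.21 to -0.70 for Cebpe and Irf8 and from 0.28 to -0.24 for Cebpe and Gfi1. Other pairs moved less, with -0.85 for Cebpe and Klf4 and 0.77 for Cebpb and Irf8.

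Cebpa, Cebpb and Irf8 formed the group with the highest positive values. Irf8 is taken here from the higher of its 2 probe sets. Correlations of the lower probe set with the other factors were not computed, so whether the group holds with it was not tested. Cebpb and Irf8 had r = 0.82 (exact permutation p = 0.025, adjusted p = 0.56) and rho = 0.83 (exact permutation p = 0.058). Cebpa and Cebpb had r = 0.80 (exact permutation p = 0.068) and rho = 0.94 (exact permutation p = 0.017, adjusted p = 0.38). For Cebpa and Irf8 r was 0.71 (exact permutation p = 0.10) and rho 0.77 (exact permutation p = 0.10). Without the 2 arrays farthest from the median of the first-named factor these r were 0.71, 0.96 and 0.87. After removing the genotype means they were 0.80, 0.82 and 0.51. Spi1 had r = 0.10 with Cebpa (exact permutation p = 0.84), and r = 0.80 without control replicates 2 and 3. With Irf8 Spi1 had r = 0.53 (exact permutation p = 0.29). Cebpg, the neighbour of Cebpa, had r = 0.50 with it (exact permutation p = 0.32).

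**Figure D3:**
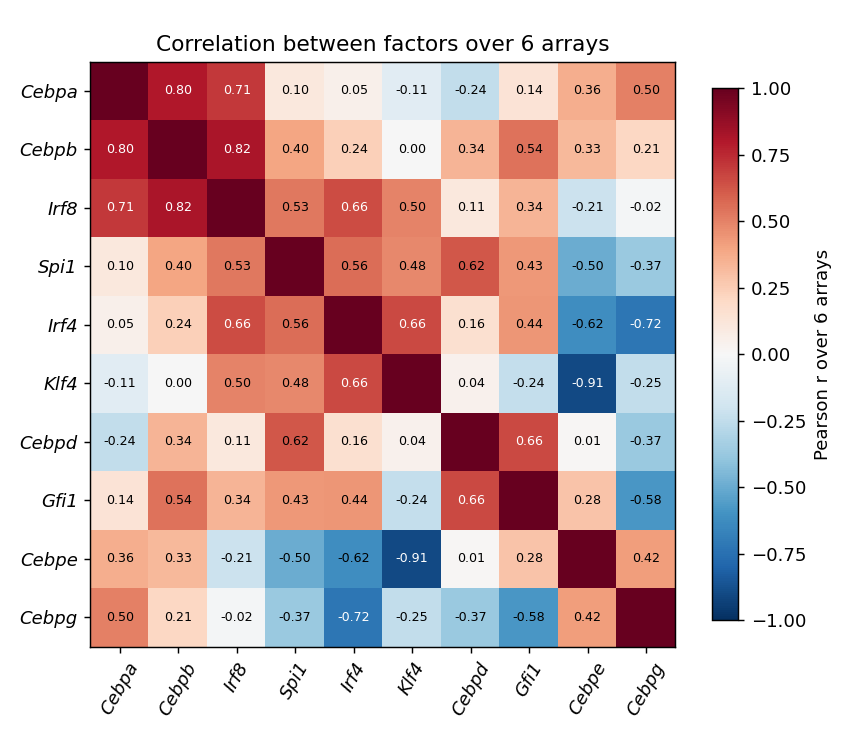
Pearson's r between the factors over the 6 arrays (colour from -1 to 1; diagonal not labelled). Cebpa, Cebpb and Irf8 have r from 0.71 to 0.82 with each other, and Cebpe and Klf4 -0.91.

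For each factor the 2 genes with the closest pattern were sought among 14079 other tested genes with an established name, by Pearson's r over the 6 arrays, as a description only; with 6 points and so many candidates an r near 1 is reached for every factor, from 0.976 upwards. Irf8 was closest to Csf1r, the macrophage colony-stimulating factor receptor (r = 0.998). Csf1r was at 6.66, 7.09 and 6.04 in the control and at 7.23, 6.71 and 8.19 in Chd7f/f samples, so that both genes put the 6 arrays in the same order (rho = 1). The r was 0.9998 without the 2 arrays with the most extreme Irf8 and 0.971 after another quantile normalization. Csf1r covered 2.15 log2 units where Irf8 covered 0.73. These values hold for the higher of the 2 Irf8 probe sets. The lower one did not follow this order, with its lowest value, 3.87, in Chd7f/f replicate 1, where Csf1r was at 7.23.

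Spi1 was closest to Myo1f, an unconventional myosin gene of leukocytes (r = 0.992), which was at 6.17 and 6.75 in control replicate 1 and Chd7f/f replicate 2 and between 7.69 and 8.16 elsewhere. Cebpe was closest to Parp6 (r = 0.994), with levels from 7.11 to 8.43, and Cep97 (r = 0.994), from 6.35 to 8.02. Of the remaining factors, Cebpa had Tyrp1 and Nanos3, Cebpb Dmrt1 and Ift43, Cebpd Il17c and Pcolce, Cebpg Ccdc105 and Ptprh, Irf4 Gzmf and Trim62, Gfi1 Gjb2 and Anks6, and Klf4 Mei1 and Igll1. The second gene of Spi1 was Rhbdl1 and that of Irf8 Trim16. Several of these genes had levels near those given above for background, among them Tyrp1 (4.07 to 4.32), Gjb2 (3.84 to 4.53) and Gzmf (3.87 to 4.58). Others were higher, such as Ift43 (5.78 to 6.27).

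**Figure D4:**
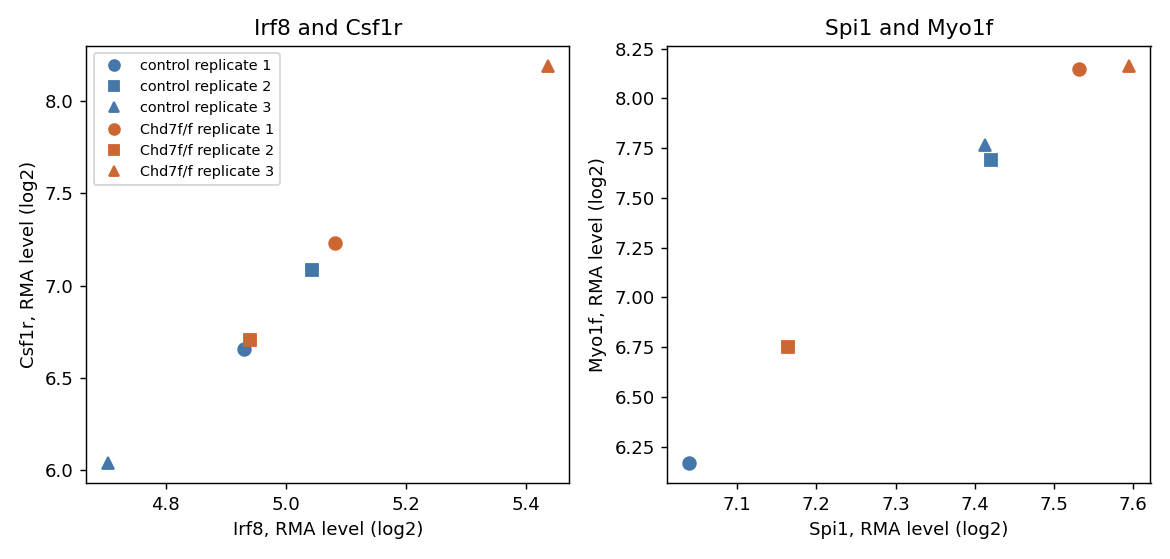
Level of Csf1r against Irf8 and of Myo1f against Spi1 on the 6 arrays (RMA, log2; points are single arrays, colours the genotypes). Chd7f/f replicate 3 is highest and control replicate 3 lowest in the left panel, and control replicate 1 is lowest in the right one. Irf8 is shown by the higher of its 2 probe sets.

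Genes that depend on these factors were followed in 3 lists. Of 17 tested genes of C/EBP-dependent granules and receptors 16 were higher and 1 lower in Chd7f/f samples, with a median of 0.20 against -0.027 for all tested genes. Of 16 tested PU.1-dependent genes 14 were higher and 2 lower (median 0.24), and of 14 tested monocyte genes linked to IRF8 and KLF4 12 were higher and 2 lower (median 0.24). None of these genes passed the adjusted threshold in limma, and 0, 1 and 1 had an unadjusted p under 0.05, which 1.84% of all tested genes had.

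Single arrays carried the medians of the granule and PU.1 lists. The granule list was at 0.019 without Chd7f/f replicate 3 and at 0.47 with Chd7f/f replicate 2 left out. The PU.1 list was at 0.0018 without control replicate 3 and at 0.57 with Chd7f/f replicate 2 left out, and the monocyte list stayed between 0.18 and 0.35 without any 1 array. Markers of macrophages, other cells that a spleen sort can hold, moved alongside, with 11 of 12 tested higher, a median of 0.26 (0.050 without control replicate 3 and 0.45 with Chd7f/f replicate 2 left out) and mean levels from 5.56 to 6.52 in the control and from 5.93 to 6.70 in Chd7f/f samples. Of the mature neutrophil markers 6 of 7 tested were higher (median 0.30, and -0.16 without Chd7f/f replicate 3). The part of either cell type in the values of the factors and of these lists was not tested, and in bulk RNA more cells of a type and more RNA per cell cannot be told apart. The lists share genes, so their counts are not separate results. Ltf, Ngp, Mmp8 and Mmp9 are in both the neutrophil and the granule list, and Mrc1 is in both the macrophage and the PU.1 list.

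Cybb, the catalytic subunit of the phagocyte oxidase and a PU.1 target, was at 6.11, 5.77 and 5.33 in the control and at 6.98, 6.10 and 7.53 in Chd7f/f samples. Control replicate 1 lay just above Chd7f/f replicate 2, so the genotypes overlapped, and the difference was 1.13 (SE 0.39, limma adjusted p = 0.9998). Itgam (CD11b) differed by 0.83, Csf1r by 0.78 and the high-affinity IgG receptor gene Fcgr1 by 0.22. With single arrays left out Cybb ran from 0.80 to 1.52, Itgam from 0.38 to 1.12, Csf1r from 0.38 to 1.12 and Fcgr1 from 0.016 to 0.35. In the monocyte list Mpeg1, the macrophage pore-forming protein, was at 5.57, 5.56 and 5.14 in the control and at 6.88, 5.67 and 7.08 in Chd7f/f samples, with no overlap and a difference of 1.12 (SE 0.38, adjusted p = 0.9998). The lysosomal protease gene Ctss differed by 1.08, Ly86 by 0.95 and the clotting factor subunit gene F13a1 by 0.99. The same ranges were 0.85 to 1.55 for Mpeg1, 0.63 to 1.46 for Ctss, 0.58 to 1.39 for Ly86 and 0.43 to 1.30 for F13a1. Among granule and receptor genes the interleukin 6 receptor gene Il6ra differed by 0.40, the proteinase 3 gene Prtn3 by 0.34, the siderophore-binding Lcn2 by 0.72 and Ms4a3 by 0.21. Their ranges were 0.26 to 0.51, 0.16 to 0.51, 0.26 to 1.28 and 0.089 to 0.38. The genes that were lower in Chd7f/f samples were Cd14 (-0.21) and Fcgr3 (-0.20) in the PU.1 list. In the monocyte list they were Cx3cr1 (-0.075) and Ciita (-0.053), and in the granule list Mmp9 (-0.074).

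**Figure D5:**
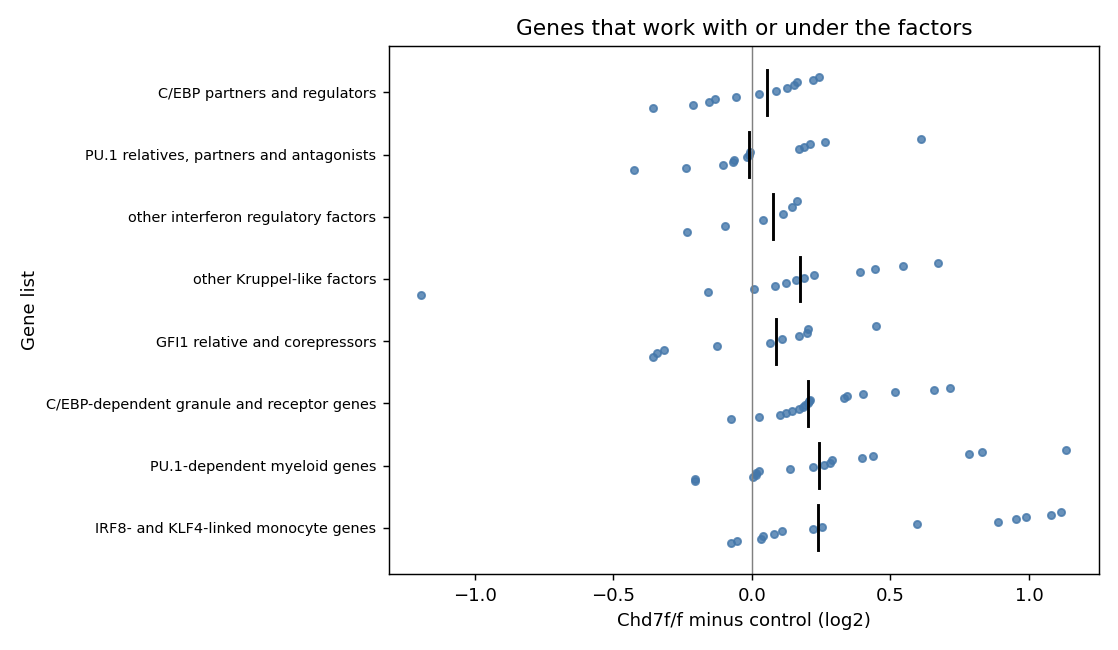
Difference of each tested gene (Chd7f/f minus control, log2) in 8 lists of genes that work with or under the factors; points are genes and black bars list medians. Most points of the 3 lower lists lie to the right of 0, with medians of 0.20, 0.24 and 0.24.

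Relatives and partners of the factors were spread around 0 in most lists. Among C/EBP partners and regulators 7 of 12 tested genes were higher (median 0.056), with Maf at 0.16 and Atf4, the stress-response bZIP gene, at -0.16. In the list of PU.1 relatives, partners and antagonists 5 of 13 were higher (median -0.012), with the early growth response gene Egr2 at -0.42 and Spic, the PU.1 relative of red pulp macrophages, at 0.61. Of the other interferon regulatory factors 4 of 6 were higher (median 0.077), with Irf2 at 0.15 and Irf1 at 0.16. The other Kruppel-like factors had 10 of 12 higher (median 0.17), with Klf8 at -1.19 and Klf9 at 0.55, and GFI1's relative and corepressors 6 of 10 (median 0.087), with the histone methyltransferase gene Ehmt2 at 0.20 and Id3 at 0.17. None of these genes passed at an adjusted or an unadjusted p under 0.05 (limma). With single arrays left out Irf1 ran from 0.012, without Chd7f/f replicate 1, to 0.38. Spic ran from 0.29 to 0.91, Klf8 from -1.74 to -0.79, Klf9 from 0.25 to 0.87, Irf2 from 0.081 to 0.19, Egr2 from -0.65 to -0.30 and Atf4 from -0.26 to -0.057.

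Several antagonists and relatives known from the erythroid, mast cell and megakaryocyte lineages had high signal; they were named after their values were seen, and other list genes, among them Jun and Klf6, were high too. Gata2 was between 11.6 and 12.0, Gata1 between 9.31 and 10.5, Gfi1b between 11.1 and 12.2 and Klf1 between 9.32 and 10.5 over the 6 arrays. Their means lay at the 94.3rd to the 99.4th percentile of named genes, while those of Gfi1 and Spi1 lay at the 57.0th and the 71.5th. Kit, the gene of the sort, was between 11.7 and 12.5. The mast cell protease gene Cpa3 was at 12.9 to 13.1, and the myeloperoxidase gene Mpo, which marks granulocyte-monocyte progenitors, ran from 6.13 to 8.69. Cpa3 had the highest mean of the tested mast cell and basophil genes. Of the same list Hdc, Ms4a2 and Fcer1a were high too, and Cma1 ran from 6.77 to 9.80. Mcpt8 was only at 3.90 to 5.05, and Prss34 and Tpsb2 fell below the level filter. Mean levels of marker lists over arrays were 6.14 to 7.30 for myeloid progenitors, 8.81 to 10.8 for the 5 measured erythroid genes, 8.17 to 8.96 for mast cells and basophils, 6.42 to 6.82 for megakaryocytes, 4.96 to 5.59 for B and plasma cells, 4.38 to 4.62 for T and NK cells, 5.34 to 5.71 for dendritic cells and 4.33 to 5.30 for mature neutrophils. Of the tested myeloid progenitor markers, which include Spi1 and Cebpa, 11 of 11 were higher in Chd7f/f samples (median 0.21), and of the erythroid genes 0 of 5 (median -0.28). Of the progenitor markers, Mpo, Elane, Prtn3, Ctsg and Ms4a3 are also in the granule list and Csf1r in the PU.1 list. The progenitor median ran from 0.12 without control replicate 3 to 0.51 without control replicate 1, and the erythroid one from -0.46 without control replicate 2 to 0.028 without Chd7f/f replicate 1, where its sign turned. Mast cell and basophil genes were higher in 5 of 6 (median 0.24; 0.078 without control replicate 1 and 0.43 without control replicate 3). Of the dendritic cell genes 4 of 7 were higher, of the T and NK cell genes 3 of 6, of the B and plasma cell genes 3 of 8 and of the megakaryocyte genes 1 of 4. None of the tested markers in these lists passed the adjusted threshold between genotypes (limma).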

How the data were processed

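Total RNA of 6 samples was hybridised to Affymetrix mouse gene arrays, 1 array per sample. The authors deposited RMA levels on the log2 scale made with Affymetrix Expression Console, per the submitters' processing notes; the sources used here give no versions, and the log base rests on the method and the range of 1.78 to 13.5. Of 41345 probe sets, 23521 carried 1 gene symbol, updated through Entrez identifiers in RefSeq (GRCm38.p6). A gene took its probe set with the highest mean, and the 15526 genes whose mean reached the 30th percentile over named genes entered the test with limma 3.58.1 in R 4.3.3 (lmFit, eBayes), adjusted by Benjamini-Hochberg over all of them. The steps were tested on simulated data. The factors, lists and tests were chosen with earlier results of these data known. Named genes were all factors, Chd7, up to 4 genes per list with the smallest p, and the 2 genes most alike to each factor. Kit, the sex-linked genes, Gata1, Gata2, Gfi1b, Klf1, Cpa3, Mpo, Jun, Klf6, Ltf, Ngp and Mmp8 were named outside this rule, after their values were seen. So were Mmp9, Mrc1, Elane, Ctsg, Cd14, Fcgr3, Cx3cr1, Ciita, Hdc, Ms4a2, Fcer1a, Cma1, Mcpt8, Prss34 and Tpsb2. In their deviations from the group mean, same-numbered arrays had r from -0.025 to 0.034 across genes, and differently numbered ones from -0.099 to 0.089. The numbers were not used to pair arrays in the main fit. So few arrays cannot show whether same-numbered ones share a batch. Alternatives were other normalizations, filters, probe sets, priors and weights, a block, and each array left out. The number of arrays limits the precision; batches are not given in the labels.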

Additional observations from a re-analysis of the deposited data

How the results depend on the processing

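No factor passed an adjusted p of 0.05 in any of the settings run: quantile normalization, median centring, no filter, a 50th percentile filter, averaged probe sets, array weights, a prior that was trended and robust, the replicate block, and each array left out. The lowest adjusted limma p of a factor was 0.989. Tested genes at an adjusted p under 0.05 numbered 0 in each setting too. At an unadjusted p under 0.05 there were 286 genes, 530 without a filter, 159 with the filter at the 50th percentile, 571 with array weights, 332 with the replicate block and 270 to 477 with single arrays left out, the latter without control replicate 2; fewer or more genes were tested under the filters, and the cause of the rest was not tested. Of the factors 2, Cebpa (0.34) and Irf8 (0.44), had an unadjusted p under 0.05 with array weights, and 0 to 1 with single arrays left out, the 1 being Cebpa without control replicate 1. The filters and the replicate block leave a difference as it is, and averaging probe sets can change only that of Irf8. Under quantile normalization, median centring, array weights and each array left out, the sign of 6 of the 10 factors held; leaving out single arrays moved Cebpe from -0.094 to 0.049, Cebpg from -0.32 to 0.36, Gfi1 from -0.13 to 0.15 and Klf4 from -0.079 to 0.17. Within-array differences between genotypes ran, with single arrays left out, from -0.045 to 0.14 for Cebpa minus Cebpb, from -0.010 to 0.35 for Cebpa minus Spi1, from -0.31 to 0.13 for Gfi1 minus Klf4 and from -0.0011 to 0.23 for Irf8 minus Irf4, the last -0.033 with the mean of probe sets. The median of the factors stayed between 0.049 and 0.16. Alternatives for genes of the lists and for list medians were added after the data were seen.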

Other observations

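Klf4 and Cebpe, the factors with the most opposite patterns (r = -0.91), tended to have opposite signs of r with marker genes over the 6 arrays. This largely follows from their own r and is not a separate result. Of the 7 tested mature neutrophil markers 7 had a positive r with Klf4 (median 0.81) and 0 with Cebpe (median -0.65), whereas over all tested genes 52.6% and 49.9% were positive. With the myeloid progenitor markers the signs were turned, with 3 of 11 positive for Klf4 (median -0.19) and 9 of 11 for Cebpe (median 0.36). Of the tested neutrophil markers, Ltf, Ngp, Mmp8 and Mmp9, secretory granule genes of maturing neutrophils, also belong to the granule list. These values describe 6 arrays, and the members of a list share them.

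Several factors had positive r with most of the 12 macrophage markers. The median was 0.82 for Cebpb (11 positive), 0.72 for Gfi1 (10 positive), 0.67 for Irf8 (11 positive), 0.57 for Cebpa (12 positive), 0.40 for Irf4 (11 positive) and 0.36 for Spi1 (10 positive). Over all tested genes between 44.8% (Spi1) and 48.3% (Gfi1) were positive for these factors. Of the other factors Cebpd had 10 positive (median 0.30), Cebpe 9 (0.24), Klf4 6 (0.023) and Cebpg 4 (-0.12). High medians were not particular to macrophage markers for every factor. Irf8 had 0.69 with the granule list, 0.67 with neutrophil markers and 0.72 with dendritic cell markers, while Cebpb had 0.59, 0.40 and 0.40. The 16 tested PU.1-dependent genes were all positive for Spi1 (median 0.58), but the medians for Cebpb (0.68), Irf8 (0.66), Gfi1 (0.63) and Irf4 (0.62) were higher.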
